A study of Mus musculus with 9 samples.

Results

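Cholesterol is made from acetyl-CoA by a chain of enzymes, and 8 genes of that chain were followed here by name: *Hmgcs1*, *Mvd*, *Idi1*, *Fdps*, *Fdft1*, *Sqle*, *Lss* and *Cyp51*. *Mvd* is not among the symbols listed and was not analysed here, so 7 of the 8 genes were measured, out of 14670 genes in all. Every 1 of the 7 passed the filter of a mean of at least 0.5 CPM (reads scaled to the depth of each library), as did all 14670 genes. The tissue was cerebral cortex dissected from mice at E16.5, that is 16.5 days of gestation, and its RNA was sequenced in 9 libraries. The comparison was over 3 genotypes with 3 libraries each: control embryos labelled +/+, *Fzd3* -/- mutants and *Celsr3* -/- mutants. *Fzd3* encodes a Frizzled receptor and *Celsr3* an atypical cadherin, both of which act in the wiring of the forebrain. According to the study's methods the mice had a mixed strain background, and controls were heterozygous or wild-type littermates, so that a control need not be +/+ at every locus. Both mutations were present in the whole animal, and what was measured was dissected cortex with all its cell types.

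Read counts were not given; the spacing of the values implies between 39857305 and 69600589 reads per library over the 14670 listed genes. At that estimated depth 3 reads correspond to between 0.0427 and 0.0752 CPM, far below the lowest value of any of the 7 genes (59.6 CPM). Counting error was not separated from the spread between libraries, and it can be much of that spread where libraries lie close together, as for *Idi1* and *Fdps* in *Fzd3* mutants. *Celsr3* mRNA measured 196, 243 and 214 CPM in control libraries, against 122, 139 and 118 CPM when *Celsr3* was mutated, without overlap, and fell (log2 difference -0.78, limma adjusted P = 0.0018). That call on *Celsr3* held in 19 of 21 alternatives and was lost without variance moderation (limma adjusted P = 0.177) and in 1 more, given with the alternative settings (all alternatives 0.00136 to 0.177). *Fzd3* mRNA was 58, 67.7 and 46.9 CPM in controls and 46.5, 39.8 and 59.6 CPM in *Fzd3* mutants, and these ranges overlapped (log2 difference -0.24, limma adjusted P = 0.24). Without *Fzd3* mutant 3 the *Fzd3* difference was -0.40 and passed (limma adjusted P = 0.0457), and with other libraries left out it was -0.38 to -0.11 (all alternatives 0.0457 to 0.633). The *Fzd3* allele is described as lacking an internal exon, and a value for the whole gene does not check that label. Neuronal RNA was abundant in all libraries: *Dcx*, a microtubule protein of young neurons, lay between 1830 and 2028 CPM. None of 5 choroid plexus markers (*Ttr*, *Folr1*, *Kl*, *Clic6* and *Otx2*) is listed. A single library stood apart in another cell type, since *Celsr3* mutant 4 had 171 CPM summed over 4 listed genes of meningeal fibroblasts against 8.98 to 19.3 CPM in the other 8 libraries. Differences of the 7 genes in *Celsr3* mutants are therefore also given without it.

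Early in the pathway *Hmgcs1* condenses acetoacetyl-CoA with acetyl-CoA, on the way to mevalonate. Mevalonate is turned into isoprenoid units, which are joined to farnesyl diphosphate, the branch point to sterols, ubiquinone, dolichol and prenylated proteins. Farnesyl diphosphate is joined to squalene, oxidised, closed to lanosterol and trimmed to cholesterol, and SREBP transcription factors raise most of these genes when sterols are low. The blood-brain barrier keeps lipoprotein cholesterol out, so the developing brain relies largely on its own synthesis.

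In *Fzd3* mutants *Hmgcs1* and *Fdps* rose against controls, and the other 5 genes did not pass the test. Thus 2 of 7 genes were higher and 0 lower at a limma adjusted P under 0.05, while 29.8% of all genes passed (15.0% higher and 14.8% lower). In *Celsr3* mutants 0 of 7 genes passed in the limma fit, against 0.307% of all genes. At an unadjusted P under 0.05 the count was 4 of 7 in *Celsr3* mutants (*Hmgcs1*, *Idi1*, *Fdps* and *Sqle*), beside 800 of 14670 genes. Compared directly, 4 of 7 genes (*Hmgcs1*, *Idi1*, *Fdps* and *Sqle*) were higher in *Fzd3* than in *Celsr3* mutants and 0 were lower, beside 29.6% of all genes (15.3% higher and 14.3% lower). The shares in the comparisons with *Fzd3* mutants have to be read against those high shares of all genes. Any pair of the 3 comparisons shares 3 libraries. The same 4 genes were counted in *Celsr3* mutants at an unadjusted P and between the mutants, and both counts use the same *Celsr3* libraries.

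Measured by single libraries, all 3 *Fzd3* mutants lay above all 3 controls for 2 of 7 genes (*Hmgcs1* and *Fdps*), as for 21.6% of all genes. All 3 *Celsr3* mutants lay below all controls for 2 of 7 (*Idi1* and *Lss*), as for 5.27% of all genes. All 3 *Fzd3* mutants lay above all *Celsr3* mutants for 4 of 7, as for 22.3% of all genes. With 3 libraries against 3, the smallest P of a two-sided exact permutation test is 0.1. The median difference of the 7 genes was 0.03 (log2) in *Fzd3* mutants, -0.15 in *Celsr3* mutants and 0.20 between the mutants, where the medians of all genes were 0.00, 0.00 and 0.00. All 7 estimates were below 0 in *Celsr3* mutants under every scaling tried, as were 51.3% of the estimates of all genes in the planned scaling.

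**Figure D1:**
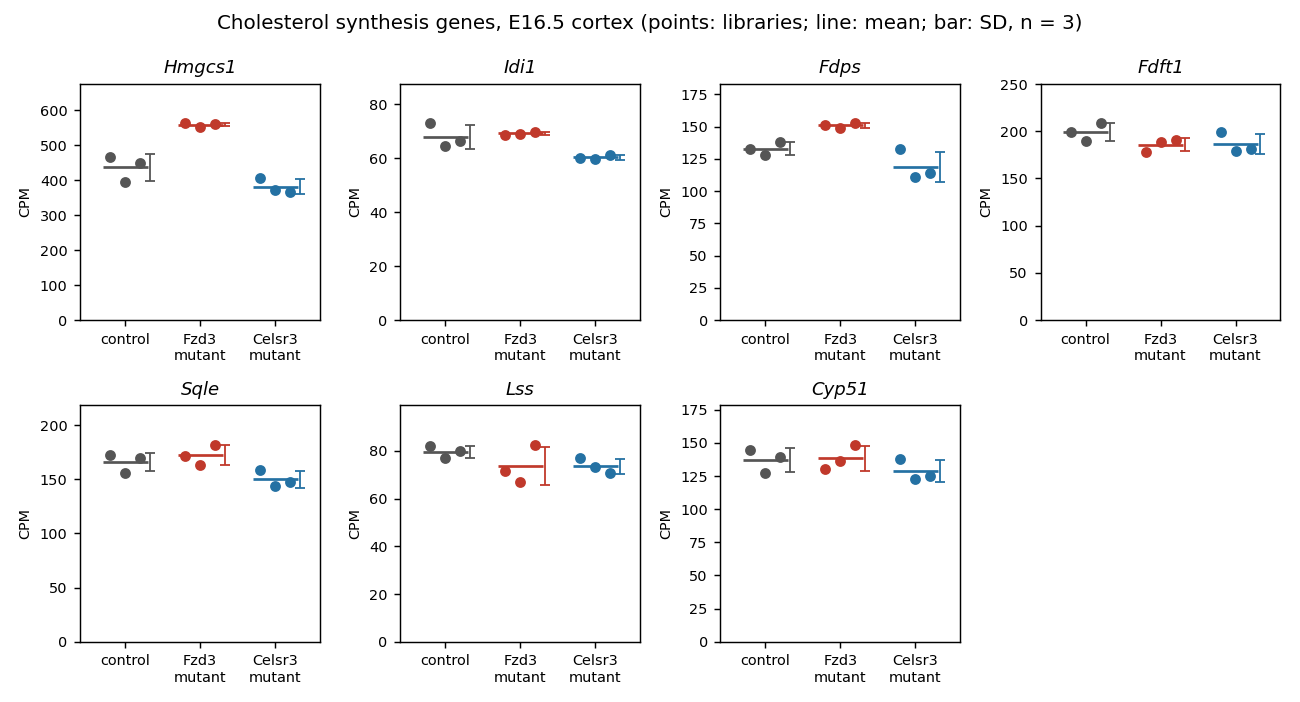
CPM (vertical axis, from 0) of the 7 measured genes in each library of the 3 genotypes; points are libraries, lines means and bars SD (n = 3). The *Fzd3* mutants lie above the other groups for *Hmgcs1* (553 to 563 CPM) and *Fdps* (149 to 153 CPM), and the groups overlap or nearly touch for *Fdft1*, *Lss* and *Cyp51*.

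The start regions of 4 measured genes are shown, which are all those with a promoter in the RefSeq (GRCm38.p6) table used here. Of these *Hmgcs1* and *Idi1* passed the test between the mutants, and *Lss* and *Cyp51* did not. *Mvd*, not measured, also had an entry, and *Fdps*, *Fdft1* and *Sqle* had none. Each sequence is the 250 bases before the RefSeq start, 5′ to 3′ on the gene's strand, at chr13:119690101-119690350 on the plus strand for *Hmgcs1*, chr13:8885356-8885605 on the plus strand for *Idi1*, chr10:76531355-76531604 on the plus strand for *Lss* and chr5:4104698-4104947 on the minus strand for *Cyp51*. Capitals mark the sterol regulatory element TCACNCCAC, its looser form TCACNCNAC, which includes the first, and the NF-Y box CCAAT, read as ATTGG on the other strand.
Hmgcs1: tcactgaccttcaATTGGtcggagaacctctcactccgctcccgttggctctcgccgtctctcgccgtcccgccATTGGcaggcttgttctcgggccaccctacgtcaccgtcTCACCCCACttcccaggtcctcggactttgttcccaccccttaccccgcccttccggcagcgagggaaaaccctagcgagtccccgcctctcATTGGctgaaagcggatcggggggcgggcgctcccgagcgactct
Idi1: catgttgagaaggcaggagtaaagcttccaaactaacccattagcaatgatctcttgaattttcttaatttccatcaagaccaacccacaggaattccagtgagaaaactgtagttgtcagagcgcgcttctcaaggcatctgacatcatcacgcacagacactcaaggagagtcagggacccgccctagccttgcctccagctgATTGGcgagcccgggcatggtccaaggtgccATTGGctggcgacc
Lss: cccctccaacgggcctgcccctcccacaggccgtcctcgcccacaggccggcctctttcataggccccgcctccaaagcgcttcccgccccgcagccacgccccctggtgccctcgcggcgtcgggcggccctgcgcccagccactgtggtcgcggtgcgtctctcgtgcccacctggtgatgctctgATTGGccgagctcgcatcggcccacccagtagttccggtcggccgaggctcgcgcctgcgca
Cyp51: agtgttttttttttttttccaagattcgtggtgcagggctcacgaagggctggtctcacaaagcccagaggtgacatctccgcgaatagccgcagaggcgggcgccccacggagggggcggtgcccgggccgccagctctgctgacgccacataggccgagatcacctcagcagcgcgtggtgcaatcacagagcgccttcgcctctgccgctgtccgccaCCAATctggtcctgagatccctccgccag
*Hmgcs1* held TCACCCCAC from 137 to 129 bases before its start, and 3 NF-Y boxes, all on the other strand, from 237, 176 and 45 bases before it. *Idi1* held 2 NF-Y boxes on the other strand, from 45 and 14 bases before the start, *Lss* 1 on the other strand from 62 bases, and *Cyp51* 1 on its own strand from 29 bases. Neither form of the sterol regulatory element was in these 250 bases of the other 3 genes, which says only that these letters were not in the window. Among 32851 promoters of the same length, searched on both strands, TCACNCCAC was in 1.05%, TCACNCNAC in 2.26%, CCAAT in 33.8% and the GC box GGGCGG in 32.7%. All 4 promoters also held GGGCGG on either strand. By the GENCODE starts used for the genes below, the last bases of the *Idi1*, *Cyp51* and *Lss* windows lie inside the gene, and so do both NF-Y boxes of *Idi1* and that of *Cyp51*. A match is a description of the letters and not of a bound site.

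*Hmgcs1* (XLOC_008303, chr13:119690379-119708260 in GENCODE M21, GRCm38), the cytosolic HMG-CoA synthase early in the pathway, measured 467, 394 and 450 CPM in the controls. It measured 563, 553 and 561 CPM in the *Fzd3* mutants and 407, 372 and 366 CPM in the *Celsr3* mutants. The *Fzd3* libraries all lay above the other 6 and close to each other, with 559 ± 5.35 CPM (SD, n = 3), and only *Celsr3* mutant 1 reached into the range of the controls. *Hmgcs1* was 1.28-fold higher in *Fzd3* mutants (log2 difference 0.36, 95% CI 0.22 to 0.49, limma adjusted P = 0.00156). Between *Celsr3* mutants and controls the log2 difference was -0.19 (95% CI -0.33 to -0.06, limma adjusted P = 0.648), or -0.16 without *Celsr3* mutant 4. Against *Celsr3* mutants, *Fzd3* mutants were 1.47-fold higher (log2 difference 0.55, 95% CI 0.42 to 0.69, limma adjusted P = 0.000161). Both calls held in 21 of 21 alternative settings. More cells that express a gene and more of its RNA per cell, or fewer cells and less RNA, cannot be told apart in such bulk samples.

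Isoprenoid units come next. *Idi1* (XLOC_007644, chr13:8885501-8892451), which interconverts the isomers of isopentenyl diphosphate, measured 73.1, 64.4 and 66.4 CPM in controls, 68.6, 69.1 and 69.9 CPM in *Fzd3* mutants and 60.1, 59.6 and 61.3 CPM in *Celsr3* mutants. All *Celsr3* libraries were below all others, while the *Fzd3* libraries fell inside the range of the controls. The *Fzd3* to control difference was 0.03 (95% CI -0.08 to 0.14, limma adjusted P = 0.719) and that of *Celsr3* mutants to controls -0.17 (95% CI -0.28 to -0.06, limma adjusted P = 0.538), or -0.18 without *Celsr3* mutant 4. Directly compared, *Fzd3* mutants were higher than *Celsr3* mutants by 0.20 (95% CI 0.09 to 0.31, limma adjusted P = 0.0134), in a call that held in 20 of 21 alternatives, the exception being given with the alternative settings.

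*Fdps* (XLOC_020924, chr3:89093588-89101959), which joins isoprenoid units to farnesyl diphosphate, measured 132, 128 and 138 CPM in controls, 151, 149 and 153 CPM in *Fzd3* mutants and 132, 111 and 114 CPM in *Celsr3* mutants. The *Fzd3* libraries lay above the other 6, and *Celsr3* mutant 1 lay among the controls. *Fdps* was 1.14-fold higher in *Fzd3* mutants than in controls (log2 difference 0.19, 95% CI 0.05 to 0.32, limma adjusted P = 0.0397). That call held in 13 of 21 alternatives and was lost without *Fzd3* mutant 1, 2 or 3 or control 1 or 2, where the difference was 0.16 to 0.20 and the limma adjusted P 0.0783 to 0.126. It was also lost with each library centred on its median (limma adjusted P = 0.057), without variance moderation (limma adjusted P = 0.107) and without a trend (limma adjusted P = 0.0851), and the alternatives as a whole ran from 0.00756 to 0.126. In *Celsr3* mutants the difference was -0.16 (95% CI -0.30 to -0.03, limma adjusted P = 0.784), or -0.13 without *Celsr3* mutant 4. Between the mutants *Fdps* was 1.27-fold higher in *Fzd3* libraries (log2 difference 0.35, 95% CI 0.21 to 0.48, limma adjusted P = 0.00197), in 21 of 21 alternatives.

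Squalene is made and oxidised in the steps that commit carbon to sterols. *Fdft1* (XLOC_010453, chr14:63145150-63179578), squalene synthase, measured 199, 190 and 209 CPM in controls, 178, 188 and 191 CPM in *Fzd3* mutants and 199, 179 and 182 CPM in *Celsr3* mutants. The 3 groups overlapped, with estimates of -0.10 in *Fzd3* mutants (95% CI -0.21 to 0.01), -0.10 in *Celsr3* mutants (95% CI -0.21 to 0.02) and 0.00 between the mutants (95% CI -0.12 to 0.11). None of the 3 passed (limma adjusted P = 0.17, 0.964 and 0.968), and without *Celsr3* mutant 4 *Fdft1* differed by -0.08 from controls.

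*Sqle* (XLOC_010852, chr15:59315077-59331192), squalene epoxidase, the first enzyme of the route that uses oxygen, measured 172, 156 and 169 CPM in controls, 172, 163 and 182 CPM in *Fzd3* mutants and 159, 144 and 147 CPM in *Celsr3* mutants. All *Fzd3* libraries were above all *Celsr3* libraries, and the controls overlapped both. Its difference was 0.05 in *Fzd3* mutants (limma adjusted P = 0.501) and -0.15 in *Celsr3* mutants (limma adjusted P = 0.794), or -0.13 without *Celsr3* mutant 4. Between the mutants *Sqle* was 1.15-fold higher in *Fzd3* libraries (log2 difference 0.20, 95% CI 0.08 to 0.32, limma adjusted P = 0.0206). Of 21 alternatives 14 kept that call, which was lost without *Fzd3* mutant 1 or 3 or *Celsr3* mutant 2 or 4 (differences of 0.16 to 0.20, limma adjusted P 0.0591 to 0.0827). It was also lost without moderation (limma adjusted P = 0.0686), without a trend (limma adjusted P = 0.0543) and in 1 more, given with the alternative settings, and the alternatives ran from 0.013 to 0.0827.

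The ring is closed by *Lss* (XLOC_002308, chr10:76531588-76557138), lanosterol synthase, which measured 82, 77 and 80 CPM in controls, 71.4, 66.9 and 82.5 CPM in *Fzd3* mutants and 76.9, 73.2 and 70.5 CPM in *Celsr3* mutants. Of all 9 values *Fzd3* mutant 3 was the highest and *Fzd3* mutant 2 the lowest, and the *Celsr3* libraries all lay just below the controls. *Lss* differed by -0.12 in *Fzd3* mutants (95% CI -0.27 to 0.04, limma adjusted P = 0.23), and without *Fzd3* mutant 3 by -0.20 (limma adjusted P = 0.0212, with alternatives from 0.0212 to 0.626). The *Celsr3* estimate was -0.11 (limma adjusted P = 0.994), or -0.08 without *Celsr3* mutant 4, and the mutants differed by 0.00 (95% CI -0.16 to 0.15, limma adjusted P = 0.979). *Cyp51* (XLOC_025204, chr5:4081145-4104746), lanosterol 14-alpha-demethylase, measured 145, 127 and 140 CPM in controls, 130, 136 and 149 CPM in *Fzd3* mutants and 138, 123 and 125 CPM in *Celsr3* mutants. These groups overlapped in all 3 comparisons, with differences of 0.01, -0.09 and 0.10 and limma adjusted P = 0.901, 1 and 0.255 in *Fzd3* mutants, *Celsr3* mutants and between the mutants. Without *Celsr3* mutant 4, *Cyp51* differed by -0.07 between *Celsr3* mutants and controls.

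**Figure D2:**
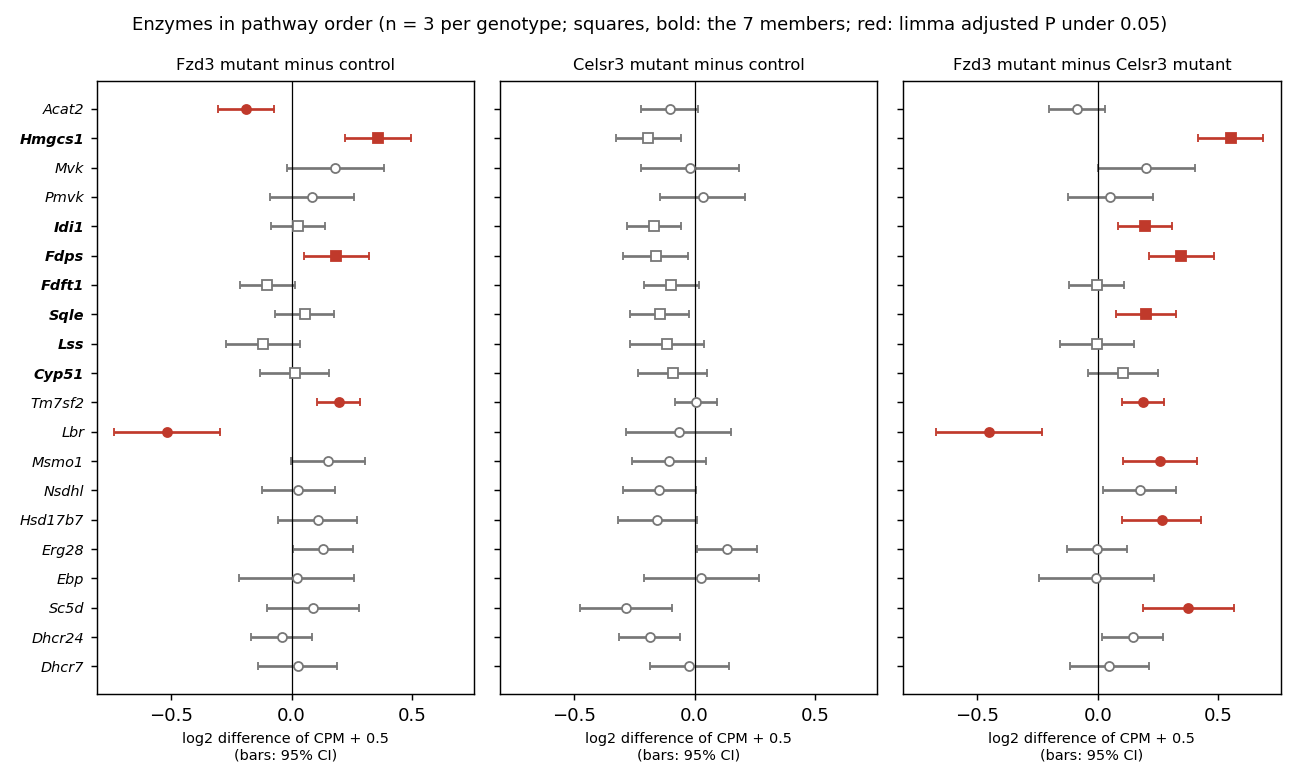
Log2 difference of CPM + 0.5 with its 95% CI (horizontal axis) for 20 enzymes in pathway order (vertical axis), in *Fzd3* mutants against controls, *Celsr3* mutants against controls and between the mutants (n = 3 per genotype). Squares are the 7 genes followed here and circles the other 13 enzymes; filled red marks passed at a limma adjusted P under 0.05, and no mark is filled in the middle panel.

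Expression per length set the genes in a stable order at its ends. In controls *Hmgcs1* stood at 95.1 ± 8.31 CPM per kb of exon (SD, n = 3), *Fdft1* at 47.2 ± 2.21, *Fdps* at 31.5 ± 1.22, *Cyp51* at 31.1 ± 2.02, *Sqle* at 29.9 ± 1.53, *Idi1* at 19.4 ± 1.29 and *Lss* at 7.38 ± 0.233 CPM per kb. The ranges of *Fdps*, *Cyp51* and *Sqle* overlapped with their neighbours in controls, while the 4 other genes were apart. In *Fzd3* mutants the order was the same, and *Fdps* (35.9 ± 0.462 CPM per kb) no longer overlapped *Cyp51* (31.4 ± 2.13). In *Celsr3* mutants *Cyp51* (29.1 CPM per kb) came before *Fdps* (28.3 CPM per kb), with overlapping ranges. Lengths were unions of annotated exons, so a gene with long untranslated or rarely used exons ranks lower than its mRNA would.

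The 7 genes tended to deviate to the same side from library to library within a genotype. The Pearson r of these deviations was above 0 in 21 of 21 pairs of genes (n = 9 libraries), with a median of 0.694, from 0.0586 for *Idi1* and *Fdps* to 0.872 for *Sqle* and *Cyp51*. No value for pairs of all genes was computed. Other genes were set against the mean of the deviations of the 7 genes, each first divided by its SD. This r was above 0 for 10 of 13 other enzymes of the route (median 0.476). It was above 0 for 49.8% of the 14375 genes outside the 7 that averaged 1 CPM or more. Deviations from a genotype mean are tied to each other, so the 9 libraries hold fewer than 9 independent values. Some deviations counted here are close to 0, such as 0.0044 for *Hmgcs1* in *Fzd3* mutant 3. In control 2 all 7 genes were below the mean of their genotype on the log2 scale (0 of 7 above), whereas 6 of 7 were above it in control 1 and 6 of 7 in control 3. Among *Fzd3* mutants 7 of 7 were above the mean in library 3, against 2 of 7 in library 1 and 1 of 7 in library 2. Among *Celsr3* mutants the counts were 6 of 7 in library 1, 0 of 7 in library 2 and 1 of 7 in library 4. Of all genes, 48.9% to 51.3% were above the mean of their genotype in each library. Mean deviations of the 7 genes ran from -0.08 (control 2) to 0.08 (*Celsr3* mutant 1), which is as large as several differences between genotypes given above. Control 2 had more reads (61637621) than control 1 (52266343) and control 3 (39857305), but *Fzd3* mutant 3 was the deepest of its group (52249430) and *Celsr3* mutant 1 the second deepest (60333846). The part of depth in these deviations was not tested.

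**Figure D3:**
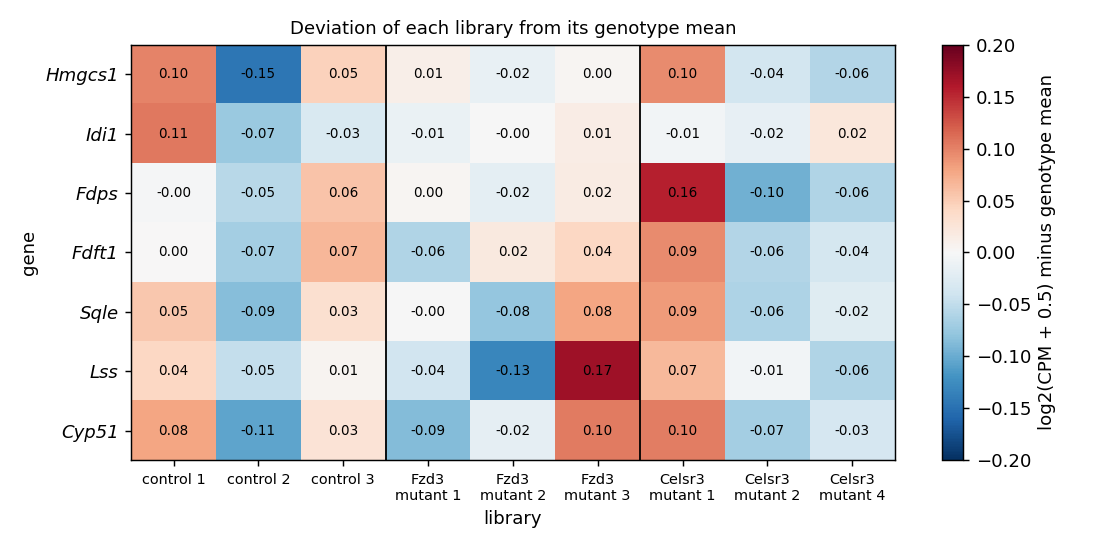
Deviation of log2(CPM + 0.5) in each library (horizontal axis) from the mean of its genotype, for the 7 genes (vertical axis); red is above and blue below the mean. Control 2 and *Celsr3* mutant 2 are below it in 7 of 7 genes and *Fzd3* mutant 3 above it in 7 of 7.

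Exons of 6 of the 7 genes share annotated bases with another gene, *Sqle* being the exception. For 5 of them the partner lies on the opposite strand, and since the use of strand is not given in the sources used here, their reads cannot be told apart. Of the partners, 3 are listed: *Ctsb*, which overlaps *Fdft1*, rose in *Fzd3* mutants (log2 difference 0.35, limma adjusted P = 0.000388), while *Akap9*, beside *Cyp51*, differed by 0.04 (limma adjusted P = 0.7) and 4930483K19Rik, beside *Lss*, by 0.05 (limma adjusted P = 0.816). *Fdps* overlaps Gm43738 on its own strand, which is not listed as a gene of its own.

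A list of 13 other enzymes of the route was followed beside these genes, and 13 of 13 were listed. In *Fzd3* mutants 1 of 13 rose and 2 of 13 fell, with a median difference of 0.09. In *Celsr3* mutants 0 of 13 passed in the limma fit (3 at an unadjusted P under 0.05), with a median of -0.07. Between the mutants 4 of 13 were higher in *Fzd3* libraries and 1 lower, with a median of 0.15. Of all genes 15.0% rose and 14.8% fell in *Fzd3* mutants, and between the mutants 15.3% were higher and 14.3% lower. In *Celsr3* mutants 0.307% of all genes passed, and 800 of 14670 had an unadjusted P under 0.05. The counts of the lists below have to be read against these shares too.

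Enzymes after lanosterol moved in both directions. *Lbr*, a protein of the nuclear membrane with sterol C14-reductase activity, measured 38.7, 40 and 35.3 CPM in controls, 23, 26.4 and 30.2 CPM in *Fzd3* mutants and 32.4, 38.4 and 38.2 CPM in *Celsr3* mutants, and fell in *Fzd3* mutants (-0.52, limma adjusted P = 0.00306). *Tm7sf2*, which has the same activity in the endoplasmic reticulum, rose in *Fzd3* mutants by 0.20 (limma adjusted P = 0.00431), and *Acat2*, the thiolase before *Hmgcs1*, fell (-0.19, limma adjusted P = 0.0207); these names were added after their values were seen. The call of *Acat2* held in 16 of 21 alternatives and was lost without *Fzd3* mutant 1 or 2 or control 1 (-0.19 to -0.17, limma adjusted P 0.0534 to 0.0677), without moderation (limma adjusted P = 0.0652) and without a trend (limma adjusted P = 0.0561, all alternatives 0.00421 to 0.0677). *Sc5d*, *Hsd17b7* and *Msmo1* (listed as *Sc4mol*) were higher in *Fzd3* than in *Celsr3* mutants, by 0.38, 0.26 and 0.26 (limma adjusted P = 0.00787, 0.0209 and 0.0169), and none of the 3 passed against controls. The call of *Hsd17b7* was lost without *Fzd3* mutant 2 or 3 or *Celsr3* mutant 2 or 4 (0.21 to 0.27, limma adjusted P 0.056 to 0.0671) and held in 16 of 21 alternatives, and that of *Sc5d* held in 20 of 21. The loss not named for each of these genes is given with the alternative settings. The call of *Msmo1* was lost without *Celsr3* mutant 2 (0.25, limma adjusted P = 0.0544) and without moderation (0.26, limma adjusted P = 0.0631), with 18 of 21 alternatives keeping it (0.00969 to 0.0731). Without *Fzd3* mutant 2, *Msmo1* passed against controls (0.22, limma adjusted P = 0.0456, all alternatives 0.0456 to 0.392).

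Of 13 genes of sterol sensing and SREBP processing, 12 were listed (*March6* was not). Of these 2 rose and 2 fell in *Fzd3* mutants, with a median of 0.01, beside 15.0% of all genes higher and 14.8% lower. In *Celsr3* mutants 0 of 12 passed in limma (1 at an unadjusted P under 0.05, median 0.01). *Srebf1* measured 41.2, 50 and 46.3 CPM in controls, 37.4, 37.1 and 38.1 CPM in *Fzd3* mutants and 45.3, 44.5 and 49 CPM in *Celsr3* mutants. All *Fzd3* libraries were below all others, and *Srebf1* fell in *Fzd3* mutants (-0.28, 95% CI -0.43 to -0.13, limma adjusted P = 0.0113). *Srebf2*, the factor mainly tied to cholesterol genes, measured 236, 243 and 245 CPM in controls, 234, 220 and 229 CPM in *Fzd3* mutants and 227, 216 and 218 CPM in *Celsr3* mutants. Both mutants lay below the controls for *Srebf2*, with differences of -0.08 and -0.13 that did not pass (limma adjusted P = 0.126 and 0.499).

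The SREBP escort *Scap* differed by 0.00 in *Fzd3* mutants and 0.02 in *Celsr3* mutants, and the retention protein *Insig1* by -0.13 and -0.11, none of which passed (limma adjusted P = 0.953, 1, 0.139 and 0.981). Without *Fzd3* mutant 3, *Insig1* passed in *Fzd3* mutants (-0.19, limma adjusted P = 0.0261, all alternatives 0.0261 to 0.368). *Mbtps2*, the site-2 protease that frees SREBPs, rose in *Fzd3* mutants (0.22, limma adjusted P = 0.00692), from 64.8 to 66.8 CPM in controls to 72.6 to 79.4 CPM. *Mylip*, a ligase that marks the LDL receptor for breakdown, rose from 3.07 to 3.84 CPM in controls to 5.08 to 5.4 CPM (0.54, limma adjusted P = 0.00439). *Vcp*, an ATPase of protein turnover, fell by 0.11 (limma adjusted P = 0.0332), and that call was lost without any 1 of the 3 *Fzd3* or 3 control libraries (-0.12 to -0.09, limma adjusted P 0.0502 to 0.121). The call of *Vcp* held in 10 of 21 alternatives, and was also lost with equal totals, quantile normalization, the pair of genotypes alone and no trend (limma adjusted P 0.0584 to 0.0868) and in 1 more, given with the alternative settings (all alternatives 0.0177 to 0.121).

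Uptake and intracellular transport were represented by 11 of 11 genes. Of these 2 rose and 2 fell in *Fzd3* mutants, with a median of -0.03, beside 15.0% of all genes higher and 14.8% lower. In *Celsr3* mutants 0 of 11 passed in limma (4 at an unadjusted P under 0.05, median 0.01). *Npc2*, the lysosomal protein that hands cholesterol to NPC1, measured 82.5, 81.3 and 82.2 CPM in controls, 61, 58.7 and 53.6 CPM in *Fzd3* mutants and 77.3, 77.7 and 87.6 CPM in *Celsr3* mutants. It fell in *Fzd3* mutants (-0.50, 95% CI -0.64 to -0.37, limma adjusted P = 0.000188). *Vldlr*, a receptor for lipoproteins and for reelin, rose (0.26, limma adjusted P = 0.00384). *Npc1* rose by 0.16 (limma adjusted P = 0.0423) and *Stard3*, a late endosomal sterol carrier, fell by 0.19 (limma adjusted P = 0.0437), both near the threshold. The *Npc1* call was lost without *Fzd3* mutant 2 or 3, any 1 of the 3 *Celsr3* libraries, or control 1 or 3 (0.13 to 0.16, limma adjusted P 0.0503 to 0.12). It held in 8 of 21 alternatives, and was also lost for *Npc1* with median centring, the pair of genotypes alone, no moderation, no trend and weights chosen after seeing the data (limma adjusted P 0.05 to 0.0696) and in 1 more, given with the alternative settings (all alternatives 0.0259 to 0.12). The *Stard3* call was lost without *Fzd3* mutant 1 or 2, *Celsr3* mutant 2 or 4, or control 2 or 3 (-0.20 to -0.14, limma adjusted P 0.0538 to 0.157). For *Stard3* 10 of 21 alternatives kept the call, and equal totals, the pair of genotypes alone, no moderation, no trend and the weights also ended it (limma adjusted P 0.0537 to 0.0822, all alternatives 0.0321 to 0.157).

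Of the 12 genes tied to liver X receptors, efflux and storage, 10 were listed (*Ch25h* and *Cyp27a1* were not), and 4 rose and 1, *Nr1h2*, fell in *Fzd3* mutants, with a median of 0.14; *Nr1h2* was named after its value was seen (-0.31, limma adjusted P = 0.000561). Of all genes 15.0% rose and 14.8% fell in *Fzd3* mutants. In *Celsr3* mutants 0 of 10 passed in limma (2 at an unadjusted P under 0.05, median -0.02). *Cyp46a1*, the neuronal 24-hydroxylase that turns cholesterol into a form able to leave the brain, measured 9, 8.52 and 8.95 CPM in controls, 17, 16.8 and 15.1 CPM in *Fzd3* mutants and 9.48, 8.29 and 7.87 CPM in *Celsr3* mutants. The *Fzd3* libraries were far above the other 6, and the gene rose 1.8-fold (log2 difference 0.85, 95% CI 0.65 to 1.04, limma adjusted P = 8.96e-05). *Apoe*, the main lipoprotein carrier of the brain, measured 22.8, 23 and 25.1 CPM in controls, 46.5, 40.7 and 37.2 CPM in *Fzd3* mutants and 26.6, 26.3 and 35 CPM in *Celsr3* mutants. Both mutants lay above the controls, with the highest *Celsr3* value in library 4, and *Apoe* rose 1.73-fold in *Fzd3* mutants (0.79, limma adjusted P = 0.000494), while the *Celsr3* difference did not pass (0.29, limma adjusted P = 0.788) and was 0.16 without *Celsr3* mutant 4. *Abcg4*, a sterol exporter, rose from 21.2 to 24 CPM in controls to 26.9 to 31.2 CPM (0.36, limma adjusted P = 0.00545). *Cyp7b1*, an oxysterol hydroxylase, rose by 0.57 (limma adjusted P = 0.0329) with overlapping libraries, all under 4 CPM, and the call was lost without *Fzd3* mutant 2 or 3 or control 2 or 3 (0.47 to 0.53, limma adjusted P 0.0864 to 0.125). The *Cyp7b1* call held in 12 of 20 alternatives, and was also lost with quantile normalization, the pair of genotypes alone and no moderation (limma adjusted P 0.0542 to 0.0865) and in 1 more, given with the alternative settings (all alternatives 0.0148 to 0.125).

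**Figure D4:**
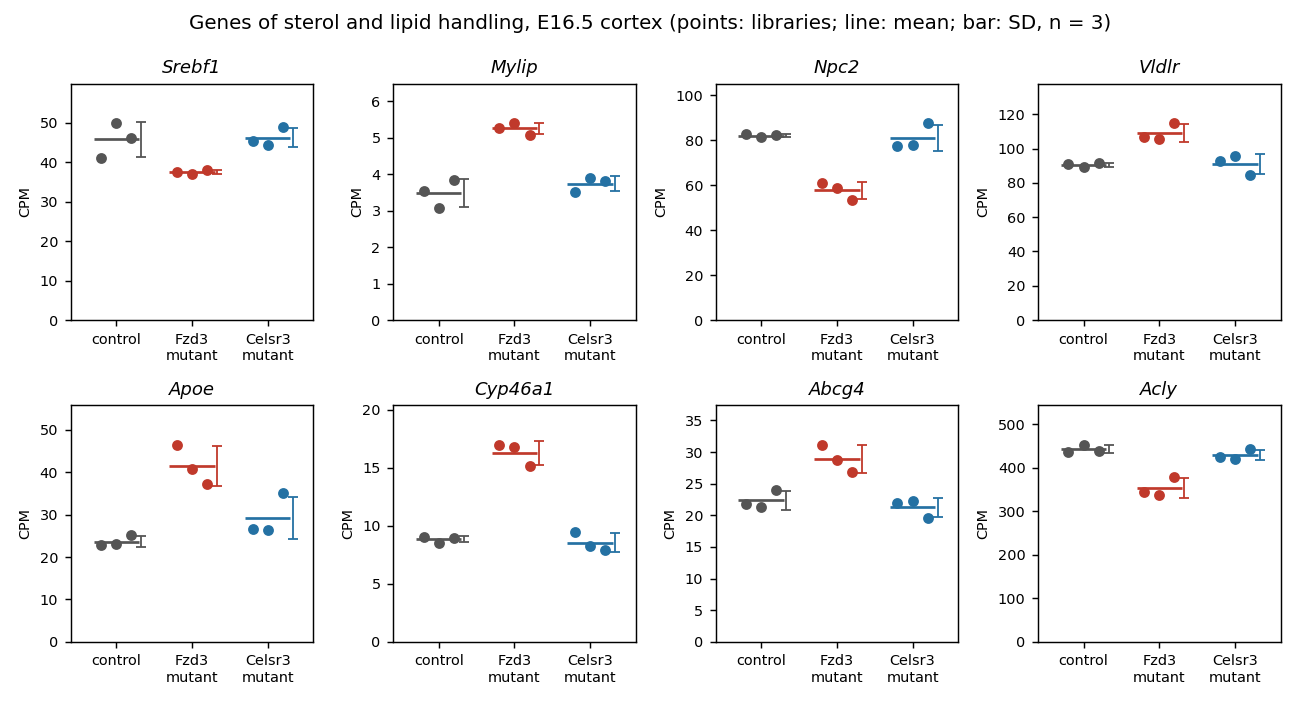
CPM (vertical axis, from 0) of 8 genes of sterol and lipid handling in each library of the 3 genotypes; points are libraries, lines means and bars SD (n = 3). In *Fzd3* mutants *Cyp46a1* (15.1 to 17 CPM) and *Apoe* (37.2 to 46.5 CPM) lie above all other libraries, and *Npc2* (53.6 to 61 CPM), *Srebf1* and *Acly* below all others.

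Fatty acid synthesis was covered by 12 of 12 genes. In *Fzd3* mutants 0 rose and 3 fell, with a median of -0.08, beside 15.0% of all genes higher and 14.8% lower. In *Celsr3* mutants 0 of 12 passed in limma (1 at an unadjusted P under 0.05), and all 12 estimates were below 0 with a median of -0.08. *Acly*, which supplies cytosolic acetyl-CoA to sterols and fatty acids alike, measured 436, 452 and 438 CPM in controls, 344, 336 and 379 CPM in *Fzd3* mutants and 425, 420 and 442 CPM in *Celsr3* mutants. It fell in *Fzd3* mutants, whose libraries were below all others (-0.33, 95% CI -0.43 to -0.22, limma adjusted P = 0.000606). *Me1*, a source of NADPH, fell by 0.32 (limma adjusted P = 0.00396), and *Scd2*, a desaturase, fell by 0.17 (limma adjusted P = 0.0136), the latter call being lost without *Fzd3* mutant 2 (-0.15, limma adjusted P = 0.0576, all alternatives 0.0104 to 0.0576). *Fads2*, another desaturase, was higher in *Fzd3* than in *Celsr3* mutants (0.20, limma adjusted P = 0.00457) but did not pass against controls (0.12, limma adjusted P = 0.0528), where it passed without *Celsr3* mutant 1 or 4 (0.12, limma adjusted P = 0.041 and 0.0473), with a filter of 5 CPM (limma adjusted P = 0.0484) and with equal totals (0.13, limma adjusted P = 0.0254), in 4 of 21 alternatives (0.0254 to 0.139).

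Users of farnesyl diphosphate outside the sterols were listed for 13 of 14 genes (*Fntb* was not). In *Fzd3* mutants 1 rose and 0 fell (median 0.06), beside 15.0% of all genes higher and 14.8% lower. In *Celsr3* mutants 0 passed in limma (0 at an unadjusted P under 0.05, median -0.04). *Fnta*, a subunit of protein prenyltransferases, was the gene that rose (0.17, limma adjusted P = 0.0262), and the call was lost without *Fzd3* mutant 1, 2 or 3 or control 2 or 3 (0.15 to 0.18, limma adjusted P 0.05 to 0.0748). *Pdss1*, of ubiquinone synthesis, was higher in *Fzd3* than in *Celsr3* mutants (0.32, limma adjusted P = 0.02), a call lost without *Fzd3* mutant 2 or 3 or *Celsr3* mutant 1 or 4 (0.25 to 0.32, limma adjusted P 0.0508 to 0.0797).

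The genes whose pattern over the 9 libraries was most like the mean standardized level of the 7 were *Ermn*, *H2-K1*, *Idh1*, *Golt1b* and *Exoc6*, among 14375 other genes that averaged 1 CPM or more. Their Pearson r was 0.984, 0.942, 0.939, 0.922 and 0.918 (n = 9 libraries, which fall into 3 genotypes). *Ermn* ranged from 1.09 to 2.81 CPM and *Idh1* from 332 to 378 CPM. *Srebf2* came at rank 1037 (r = 0.58) and *Srebf1* at rank 13387 (r = -0.56).

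Markers of some cell types differed in *Fzd3* mutants, where 15.0% of all genes rose and 14.8% fell. Radial glia were represented by 8 of 8 genes, of which 6 fell in *Fzd3* mutants. Their summed level was 1354, 1403 and 1371 CPM in controls, 1043, 1103 and 986 CPM in *Fzd3* mutants and 1234, 1267 and 1345 CPM in *Celsr3* mutants, with *Fabp7* the most abundant by the mean of all 9 libraries. By genotype *Vim*, named after its values were seen, exceeded *Fabp7* in controls (482.8 against 462.9 CPM) and *Celsr3* mutants (459.6 against 420.4 CPM). In *Fzd3* mutants it was lower (312.9 against 411.5 CPM). All 5 of 5 intermediate progenitor genes fell, and their sum was 391, 415 and 346 CPM in controls, 220, 240 and 274 CPM in *Fzd3* mutants and 381, 434 and 440 CPM in *Celsr3* mutants, with *Eomes* the most abundant. Both progenitor sums were thus lower in all *Fzd3* libraries than in any other.

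Oligodendrocyte precursors were represented by 5 of 5 genes, of which 3 rose in *Fzd3* mutants, and their sum was 29.4, 27.6 and 39.1 CPM in controls, 71.2, 62.6 and 38 CPM in *Fzd3* mutants and 36.9, 26.9 and 32.2 CPM in *Celsr3* mutants, with *Pdgfra* the most abundant. For endothelium 3 of 6 genes rose, with sums of 99.2, 101 and 102 CPM in controls, 145, 139 and 128 CPM in *Fzd3* mutants and 110, 95.5 and 140 CPM in *Celsr3* mutants, and *Kdr* was the most abundant. Microglial genes rose in 2 of 6 cases, with sums of 29.6, 33.4 and 32.4 CPM in controls, 52.8, 49.1 and 36.4 CPM in *Fzd3* mutants and 34.1, 35.5 and 42.2 CPM in *Celsr3* mutants, and *Csf1r* was the most abundant. *Fzd3* mutant 3 was the lowest of its group for each of these 3 sums. These counts are of the planned fit, in which 15.0% of all genes rose in *Fzd3* mutants. *Olig2* (0.98, limma adjusted P = 0.0309), named after its value was seen, held in 15 of 21 alternatives and was lost without *Fzd3* mutant 1 or 2 or control 1 or 2 (0.80 to 0.93, limma adjusted P 0.0869 to 0.122), without moderation (limma adjusted P = 0.125) and without a trend (limma adjusted P = 0.0632). The call of *Pdgfra* (0.73, limma adjusted P = 0.0399) held in 15 of 21 alternatives, being lost without *Fzd3* mutant 1 or 2 or control 1 or 2 (0.56 to 0.74, limma adjusted P 0.0895 to 0.155), without moderation (limma adjusted P = 0.149) and without a trend (limma adjusted P = 0.0814).

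Projection neuron genes were listed for 7 of 8 (*Tubb3* was not), with *Dcx* the most abundant, and 2 rose and 4 fell in *Fzd3* mutants in the planned fit, where the sum was 5355, 5216 and 5316 CPM against 5119, 5122 and 4991 CPM in controls and 5307, 5248 and 5009 CPM in *Celsr3* mutants. Interneuron genes (6 of 6 listed, *Dlx1* the most abundant) had 0 calls in *Fzd3* mutants against controls in limma (0 at an unadjusted P under 0.05), while 3 of 6 were higher in *Fzd3* than in *Celsr3* mutants, and their sum lay between 178 and 264 CPM over all libraries. Those 3 calls were of *Gad1*, *Gad2* and *Lhx6*, named after their values were seen, beside 15.3% of all genes higher between the mutants. They held in 16, 14 and 7 of 21 alternatives (limma adjusted P up to 0.0836, 0.246 and 0.165). For astrocytes 3 of 5 genes were listed (*Aqp4* and *Gfap* were not), 1 rose and 1 fell, the sum was 242 to 279 CPM, and *Sparcl1* was the most abundant. Red blood cell genes (6 of 6, *Hba-a1* the most abundant) summed to 1569 to 2536 CPM, and 1 fell. Meningeal genes (4 of 5, *Lum* not listed, *Col3a1* the most abundant by a mean that rests on *Celsr3* mutant 4) had 0 calls in limma in either mutant against controls (1 at an unadjusted P under 0.05 in each). Calls of single markers in *Fzd3* mutants were less stable for *Neurod2* (11 of 21 alternatives, limma adjusted P up to 0.133) and *Stmn2* (15 of 21, up to 0.106) of the projection neurons, *Hes1* (18 of 21, up to 0.0584) of radial glia, *Aldh1l1* (16 of 21, up to 0.102) of astrocytes, *C1qa* (15 of 20, up to 0.0942) of microglia, *Cldn5* (20 of 21, up to 0.0526) of endothelium and *Hbb-y* (13 of 20, up to 0.127) of red blood cells, all named after their values were seen. The counts in *Fzd3* mutants stand beside 15.0% of all genes that rose and 14.8% that fell. No marker gene passed in *Celsr3* mutants, where 0.307% of all genes did. The part of these cell types in the differences of the cholesterol synthesis genes was not tested.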

How the data were processed

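RNA of E16.5 mouse cerebral cortex was measured in 9 libraries, 3 per genotype, grouped by the genotype label of each sample. The labels name Trizol for extraction and the methods an RNeasy kit, and a company prepared and sequenced the libraries. The authors deposited CPM values per gene rescaled once more within each library (column sums 990141 to 1012199) and without genes of little expression. The submitters' processing notes list FastQC, TopHat, TopHat2, Bowtie, Cufflinks 2.1.1, edgeR 2.12 and the builds GRCm38 and GRCh37, with no role given; the use of strand is not given in the sources used here. That scaling is relative, so a change in a few abundant RNAs can shift all others.

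Genotypes were compared by limma 3.58.1 under R 4.3.3, by a moderated linear model with a variance trend, on log2(CPM + 0.5), a scale that understates changes of low genes, in a fit of all 9 libraries, two-sided, with Benjamini-Hochberg adjustment over 14670 genes and a threshold of 0.05. A gene called higher or lower, or said to rise or fall, passed that threshold. The filter of a mean of at least 0.5 CPM removed no gene. CPM are not counts, and no test for counts was run. The reads of a library were inferred from the spacing of its values, and describe counting error only. The fit was tested on simulated data, and no result of that test is given here. Tables and exact permutation tests were made in Python 3.11.15 with scipy 1.17.1. Positions and exon lengths come from GENCODE M21 and promoters from RefSeq GRCm38.p6, neither of which need be the annotation the authors used. P values measure the spread between these libraries; nothing in the labels says which came from separate litters.

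The members and the gene lists were chosen with earlier results of these data known. After the results were seen 2 genes were taken out of the pathway lists, and they are not reported here. Named were all members, up to 4 genes of each pathway list with the largest absolute difference among those past the threshold in a comparison, *Srebf1*, *Srebf2*, *Scap* and *Insig1*, both mutated genes, the 5 genes most alike in pattern, and of each marker list the most abundant gene and those not listed. Alternatives changed the pseudocount, filter, scaling, libraries, replicate block, moderation and weights.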

Additional observations from a re-analysis of the deposited data

How the results depend on the processing

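Over 21 alternatives and 7 genes in 3 comparisons, 411 of 441 values kept their direction and their side of the threshold, 16 lost a call, 1 gained it and 13, all uncalled, turned direction. In *Celsr3* mutants 147 of 147 kept both, and 0 of 7 genes passed in each. *Cyp51* turned in *Fzd3* mutants with libraries centred on the median (-0.0011) and, among single libraries left out (-0.0392 to 0.0565), without *Fzd3* mutant 3 or control 2. *Idi1* turned without control 2 (leave-outs -0.0098 to 0.0803). Between the mutants *Fdft1* turned with totals made equal (0.0013) and without *Fzd3* mutant 1 or *Celsr3* mutant 1 (leave-outs -0.033 to 0.0436), and *Lss* with equal totals (0.0017), quantile normalization (0.00197), weights from reads (0.0017) and without *Fzd3* mutant 1 or 2 or *Celsr3* mutant 1 (leave-outs -0.0878 to 0.0624). Genes called in *Fzd3* mutants (2 of 7) numbered 1 with median centring, 1 without moderation, 1 without a trend and 1 to 2 with a library left out. The weights were chosen after seeing the data. The labels do not say whether replicate numbers pair the libraries. Deviations of same-numbered libraries correlated at -0.199 to 0.192, and those of differently numbered libraries at -0.163 to 0.188, which does not decide it. With the replicate block 2 of 7 genes, not 4, were called between the mutants (not *Idi1* and *Sqle*), and of all genes 2101 instead of 4346. *Celsr3* mutant 4 was the only library with its number, so with the block it added nothing to any comparison. That setting thus resembled leaving this library out, and it also left fewer values from which to estimate the spread. Among genes named by rule in the other lists, the block also ended calls between the mutants. These were the calls of *Sc5d*, *Hsd17b7*, *Msmo1*, *Mylip*, *Srebf1*, *Mbtps2*, *Vldlr*, *Npc1*, *Cyp7b1*, *Me1*, *Fads2* and *Pdss1* (limma adjusted P 0.0673 to 0.193). Against controls the block ended the calls of *Vcp*, *Npc1*, *Cyp7b1* and *Fnta* in *Fzd3* mutants. For *Celsr3* mutants 29 of all genes were called with the block in place of 45 (without *Celsr3* itself, adjusted P = 0.0699 by limma), and 24 without moderation. The causes were not tested. Dividing by exon length changed the order, since by CPM *Sqle* ranked 3 in controls and *Fdps* 5. The lower end changed as well, since by CPM *Lss* ranked 6 and *Idi1* 7 in all 3 genotypes. The planned edgeR and DESeq2 tests were not run. In each library the values fitted a single step, from 0.01424 CPM (*Celsr3* mutant 4) to 0.02508 CPM (control 3), which gave the inferred reads. The check set for using these reads as counts was still not met, since the file has too few low values.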
